A study of Mus musculus with 24 samples.

Results

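The chemokine ligands of the mouse were read as a gene family in 24 bulk RNA sequencing libraries of sorted tissue-resident macrophages. Members were all protein-coding genes of the deposited count table whose symbol is Ccl or Cxcl followed by a number, together with Cx3cl1, Xcl1, Pf4 and Ppbp, and 47 of 55487 genes met this rule. They carry 41 distinct symbols, because Ccl19, Ccl21 and Ccl27 exist in near-identical copies. Macrophages came from the lung (alveolar macrophages), liver (Kupffer cells), brain (microglia) and spleen (splenic macrophages), each from wild-type mice (WT) and from mice of the genotype Z165KO (KO here), with 3 libraries in each of 8 groups. Each library was made from 100000 sorted cells. The labels describe neither the Z165KO allele nor strain, age, sorting gate or strand, and they do not state that replicates were separate animals. The spread behind all p-values here may therefore be technical in part or in whole.

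Chemokines are small secreted proteins that steer the movement of leukocytes through G-protein-coupled receptors, and atypical receptors take them up without signalling. Some are made at rest by tissue macrophages and mark their identity, and others are transcribed within minutes to hours of activation through NF-kB or interferon signalling. Many sit in gene clusters, and neighbours often share receptors: Cxcl1, Cxcl2 and Cxcl3 attract neutrophils through Cxcr2, Ccl2, Ccl7 and Ccl12 bind Ccr2, and Cxcl9 and Cxcl10 bind Cxcr3.

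Total counts per library ran from 50449347 to 65981787. Each WT group held the marker of its label: Chil3 averaged 20410 CPM (counts scaled to library size) in alveolar macrophages, Clec4f 9353 CPM in Kupffer cells, Tmem119 4985 CPM in microglia and Spic 1476 CPM in splenic macrophages, and no other WT group exceeded 137 CPM for these 4 genes. Zeb2, the transcription factor in the series title, spanned 126 to 142 CPM in alveolar KO and 190 to 297 CPM in alveolar WT, whereas the genotypes overlapped in the other 3 types. Because Z165KO is not described, counts over the whole gene do not check the label. A single alveolar WT library, replicate 2, stood apart in inducible ligands and is treated separately where it touches a result.

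The promoters of 4 ligands on chromosome 5 are shown because these inducible ligands were all highest in replicate 2 among the alveolar WT libraries. Each is the stretch of 250 bases before the transcription start, 5′ to 3′ on the gene's strand, from the RefSeq promoter table (build GRCm38.p6), which held 30 of the 41 ligand symbols. Cxcl1 (chr5:90890995-90891244, plus strand), Cxcl2 (chr5:90903649-90903898, plus strand) and Cxcl3 (chr5:90785851-90786100, plus strand) lie in a cluster of 7 ligand genes, and Cxcl10 (chr5:92348890-92349139, minus strand) lies beside Cxcl9. In the first 3, capitals mark a narrow form of the NF-kB motif on either strand, GGG and TTTCC with 2 bases of any kind between. In Cxcl10 they mark the core of the interferon-stimulated response element (ISRE), GAAA and GAAA with 2 bases between, and the wide NF-kB form, GGG and CC with 5 bases between.
Cxcl1: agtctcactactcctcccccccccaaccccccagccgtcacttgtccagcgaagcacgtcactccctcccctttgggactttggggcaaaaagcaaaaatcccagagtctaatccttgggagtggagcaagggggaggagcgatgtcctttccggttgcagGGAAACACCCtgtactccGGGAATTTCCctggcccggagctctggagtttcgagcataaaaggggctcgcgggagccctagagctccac
Cxcl2: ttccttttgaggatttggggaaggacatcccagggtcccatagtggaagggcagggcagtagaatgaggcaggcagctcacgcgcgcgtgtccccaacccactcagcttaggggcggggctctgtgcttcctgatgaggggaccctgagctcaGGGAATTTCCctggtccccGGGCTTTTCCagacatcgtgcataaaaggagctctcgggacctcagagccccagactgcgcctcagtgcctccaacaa
Cxcl3: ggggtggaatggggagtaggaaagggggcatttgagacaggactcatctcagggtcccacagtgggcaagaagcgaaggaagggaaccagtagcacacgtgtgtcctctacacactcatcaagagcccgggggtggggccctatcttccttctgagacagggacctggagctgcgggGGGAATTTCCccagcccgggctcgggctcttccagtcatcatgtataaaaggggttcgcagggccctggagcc
Cxcl10: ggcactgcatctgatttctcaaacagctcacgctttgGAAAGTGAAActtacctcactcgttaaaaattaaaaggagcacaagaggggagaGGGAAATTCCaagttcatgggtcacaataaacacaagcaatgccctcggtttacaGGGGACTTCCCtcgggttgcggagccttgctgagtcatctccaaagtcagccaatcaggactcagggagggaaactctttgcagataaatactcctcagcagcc
Cxcl1, Cxcl2 and Cxcl3 shared the site GGGAATTTCC, which begins 71, 97 and 73 bases before their RefSeq starts. Its slightly wider form, GGGA and TTTCC with 1 base between, occurred in no other of the 30 ligand symbols and in 0.356% of all 32851 promoters of the table. The narrow form, which includes it, was present in 5 ligand symbols (these 3, Ccl9 and Ccl20) and in 1.41% of promoters. Both narrow forms were chosen after the promoters had been read. The wide form, which contains both, was present in 15 of 30 ligand symbols and in 45.8% of all promoters. The ISRE letters were found in Ccl19, Cxcl10 and Cxcl14, with 2.98% of promoters. TGANTCA, an AP-1 motif and its own reverse complement, was found in 5 symbols, among them Cxcl10, with 6.75% of promoters. CAGGTG, an E-box of the kind ZEB factors bind, was found in Ccl20, Ccl27a, Ccl27b and Ccl28, with 17.2% of promoters, and GAGGAAGT, a PU.1 motif, in Pf4 alone, with 2.44%. All motifs were searched on both strands in the same window. In Cxcl10 the ISRE letters (213 bases before the start) and the AP-1 letters (74 bases) do not overlap with the NF-kB letters (159, 104 and 103 bases, the last 2 overlapping). The gene starts of Cxcl1 (90891241) and Cxcl2 (90903871) in the GENCODE annotation lie inside their printed stretches. Distances from those starts would be shorter. A match describes letters only.

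Across the family, 37 of 47 genes had a count in some library, and 30 reached 1 CPM in a library. The 10 genes at 0 throughout were the 7 Ccl21 genes, 1 Ccl19 copy and 2 Ccl27a copies. Reads of near-identical copies may be split or lost in counting, so their 0 is uncertain. Another 7 genes stayed below 1 CPM (Ccl1, Ccl11, the other Ccl19 gene, Ccl20, Ccl26, Ccl27b and Cxcl5). At a mean of 5 CPM or more, 18 ligands were present in WT alveolar macrophages and in WT Kupffer cells, 15 in WT splenic macrophages and 11 in WT microglia.

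**Figure D1:**
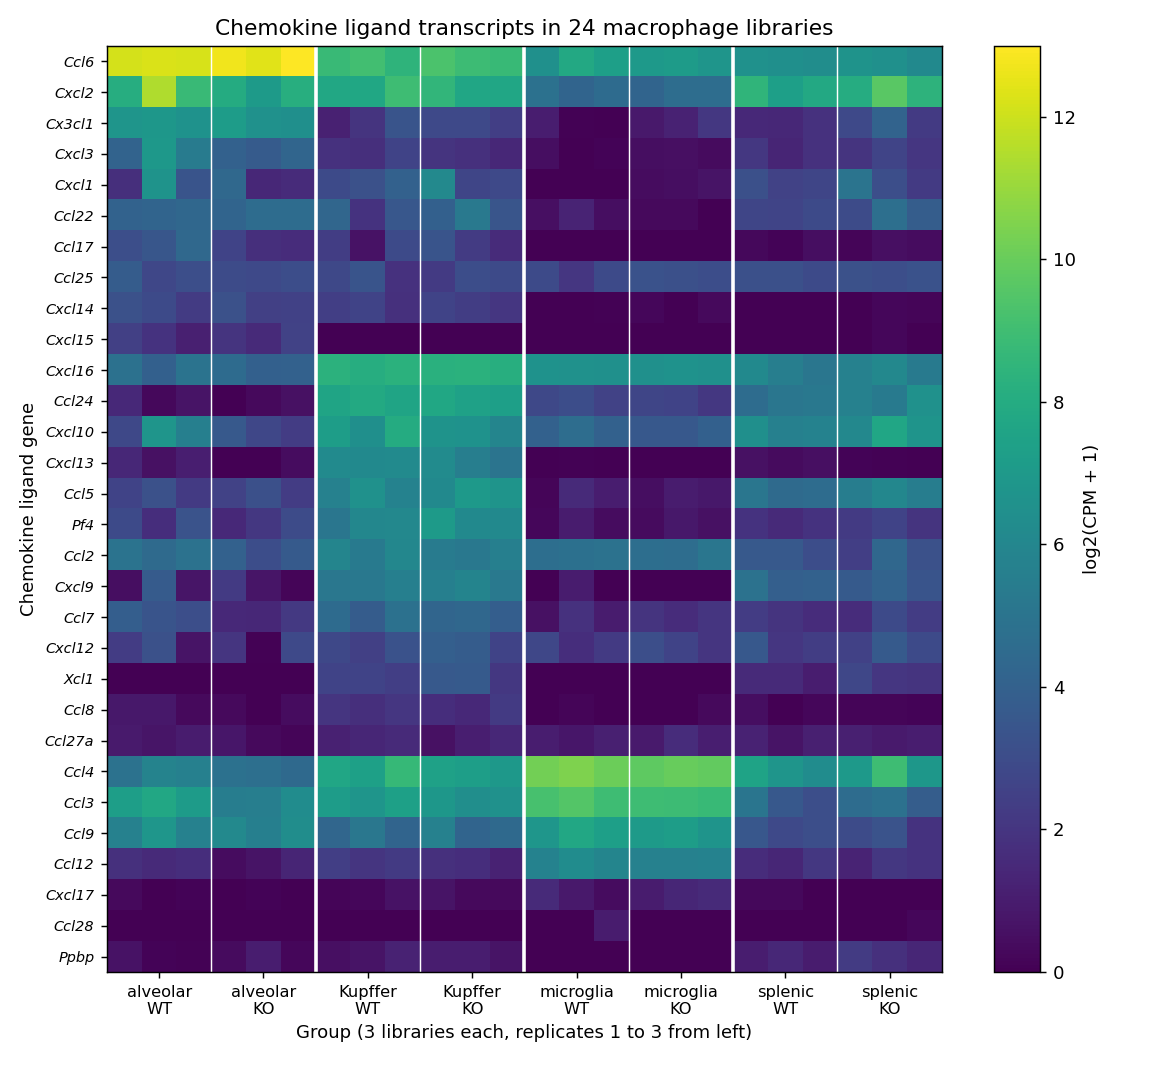
Heat map of the 30 ligand genes that reached 1 CPM in a library (rows, ordered by the WT cell type with the highest mean) in all 24 libraries (columns, 3 for each of 8 groups). Colour is log2(CPM + 1). Ccl6 is brightest in the alveolar libraries, Ccl4 and Ccl3 in microglia, and alveolar WT replicate 2 is bright in Cxcl1, Cxcl2, Cxcl3 and Cxcl10.

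Which ligand transcripts each macrophage type held was compared across the 12 WT libraries. Of 29 tested ligands, 25 differed among the 4 types (F test of edgeR, adjusted p under 0.05), beside 52.3% of all genes tested. Ccl25, a thymic and gut chemokine, averaged between 5.41 and 8.82 CPM in the 4 types (adjusted p = 0.475), and Cxcl12, the ligand of Cxcr4, between 3.88 and 6.41 CPM (adjusted p = 0.831). The other exceptions were Cxcl17 (adjusted p = 0.125) and the Ccl27a gene on chromosome 4 (adjusted p = 0.464). Each type was then compared with the mean of the other 3 on the log scale. These comparisons share libraries with each other, and the KO comparisons further on use the same WT libraries. In bulk RNA, fewer cells of a type and less RNA per cell cannot be told apart.

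Alveolar macrophages were dominated by Ccl6, a ligand of Ccr1. On the length-scaled TPM scale it made up 71.4% of the ligand total, with 8243 ± 104 of 11549 TPM (SD, n = 3). Cxcl2 followed with 1717 ± 2032 TPM and Ccl3 with 703 ± 176 TPM, then Ccl4, Cx3cl1 and Ccl17 with 209, 85.6 and 75.7 TPM. The SD of Cxcl2 exceeded its mean, so its place above Ccl3 does not hold beyond the spread. The rank of Ccl17 above Cxcl10 and Ccl9, at 74.5 and 73.2 TPM, lies within the spread as well.

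Against the mean of the other 3 WT types, 11 ligands were called higher in alveolar macrophages and 4 lower (edgeR), beside 17.3% and 14.7% of all genes. The lower ones were Ccl4, Ccl12, Ccl24 and Cxcl16. Ccl6 stood at 4511, 4897 and 4781 CPM in the WT libraries, and the means of Kupffer cells, microglia and splenic macrophages were 443, 161 and 87.7 CPM, without overlap (log2 4.68 ± 0.20 SE, adjusted p = 2.83e-08). Cx3cl1, the membrane-bound ligand of Cx3cr1, stood at 109, 115 and 98.3 CPM against means of 4.51, 0.361 and 2.01 CPM (log2 6.16 ± 0.67, adjusted p = 3.19e-05, and log2 7.36 without microglial WT replicate 1). Ccl22, a ligand of Ccr4, stood at 15.8, 17.5 and 19.0 CPM, where the Kupffer libraries reached 18.8 CPM, so these 2 types overlapped (log2 2.25 ± 0.44, adjusted p = 0.00233).

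Several alveolar ligands were compared with types that held no count, so that only levels are given for them. Ccl17, the other Ccr4 ligand, stood at 7.62, 10.1 and 19.9 CPM and was at 0 in all 6 microglial libraries. Cxcl1 stood at 2.36, 100.3 and 9.27 CPM and was at 0 in the 3 WT microglial libraries. Cxcl14, a chemokine of epithelia, stood at 8.30, 6.43 and 3.73 CPM and was at 0 in the 3 WT splenic libraries, while Kupffer cells averaged 4.004 CPM. Cxcl15, the lung epithelial chemokine, averaged 2.85 CPM in WT alveolar libraries and was at 0 in the other WT libraries. All 10 lung epithelial markers reached 1 CPM there, with a sum (Cxcl15 included) of 190.2 to 429 CPM, against at most 30.8 CPM in any other WT library. The part of epithelial RNA in the Cxcl15 level was not tested.

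Cxcl2 and Cxcl3 were called higher in WT alveolar macrophages (log2 3.30 ± 0.54 and 5.78 ± 0.63, adjusted p = 0.000704 and 3.17e-05). Their libraries were far apart. Cxcl2 stood at 269, 2738 and 450.2 CPM, and the WT Kupffer libraries, at 219, 213 and 497 CPM, overlapped with the lower 2 of these. Cxcl3 stood at 16.3, 119.5 and 41.0 CPM, above all other WT libraries, which reached at most 5.21 CPM. Without replicate 2 both calls held, with log2 differences of 1.55 for Cxcl2 and 4.67 for Cxcl3. Without microglial WT replicate 1 the Cxcl3 difference was 6.43.

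Kupffer cells spread their ligand transcripts over many genes: 14 ligands were called higher than in the mean of the other types and 2 lower (Ccl9 and Ccl12), beside 15.2% and 7.58% of all genes. No ligand held more than 23.9% of the ligand total of 5186 TPM. Ccl4 led with 1237 ± 610.3 TPM, followed by Ccl6 (774 ± 175), Ccl3 (575 ± 112), Ccl24 (496 ± 64.7), Cxcl2 (466 ± 232) and Cxcl16 (318 ± 31.8). Neighbours in this order did not differ beyond their SDs.

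Cxcl13, which guides B cells through Cxcr5, stood at 74.2, 70.8 and 72.2 CPM, while no other WT library exceeded 1.71 CPM (adjusted p = 9.55e-08). Ccl24, an eotaxin and ligand of Ccr3, stood at 191, 235 and 189 CPM against means of 30.5 in splenic macrophages, 6.17 in microglia and 0.901 CPM in alveolar macrophages (log2 5.05 ± 0.35, adjusted p = 2.34e-06). Pf4, or Cxcl4, known from platelet granules and also made by macrophages, stood at 33.3, 63.8 and 66.8 CPM, while other WT libraries reached at most 9.07 CPM (log2 4.67 ± 0.41, adjusted p = 1.3e-05).

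Ccl5 stood at 51.9, 94.6 and 53.6 CPM in Kupffer cells, above the splenic libraries (33.0, 21.3 and 23.1 CPM) and the other types (log2 3.48 ± 0.43, adjusted p = 0.000147). Cxcl16, which binds Cxcr6 and also acts as a scavenger receptor, stood at 327, 274 and 318 CPM, with at most 98.8 CPM in other WT libraries (log2 2.49 ± 0.20, adjusted p = 5.64e-06). Ccl7 stood at 22.5, 12.9 and 27.5 CPM and overlapped with the highest alveolar library at 13.6 CPM (log2 2.43 ± 0.38, adjusted p = 0.000729). These 3 calls held in all 16 alternatives.

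The interferon-inducible pair was less secure. Cxcl9 stood at 34.5, 36.3 and 47.3 CPM in Kupffer cells and at 29.1, 14.5 and 15.6 CPM in splenic macrophages (log2 3.51 ± 0.95, adjusted p = 0.021). It dropped out without Kupffer WT replicate 2 or 3 (adjusted p = 0.0527 and 0.0702), and its log2 difference was 5.93 without microglial WT replicate 2 and 4.57 without alveolar WT replicate 2. Cxcl10 stood at 147, 86.5 and 252 CPM and overlapped with splenic macrophages and with alveolar replicate 2 (log2 1.85 ± 0.56, adjusted p = 0.0332). In 8 of 16 alternatives it was no longer called: with the replicate block (0.0579) and without alveolar WT replicate 3, Kupffer WT replicate 1 or 3, microglial WT replicate 1 or 3, or splenic WT replicate 2 or 3 (adjusted p between 0.0572 and 0.202, the highest without Kupffer WT replicate 3). The interferon-response list of 20 genes summed to 2699 to 3320 CPM in WT Kupffer cells and 876 to 1513 CPM in WT splenic macrophages, against 165 to 233 CPM in the other WT libraries.

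Kupffer libraries also held markers of other liver cells. All 12 endothelial markers reached 1 CPM, with sums of 5636 to 7151 CPM in WT, and so did all 10 NK cell markers (194 to 244 CPM) and all 11 T cell markers (198 to 378 CPM). Microglia held NK cell sums of 0 to 2.26 CPM, with Ncr1, Klra8, Gzma, Nkg7 and Klre1 at 0. Xcl1, a chemokine of NK and CD8 T cells, stood at 5.02, 5.13 and 4.26 CPM in WT Kupffer cells and at 1.97, 1.94 and 1.03 CPM in splenic macrophages, and was at 0 in microglia. The part of these cells in the ligand levels of the Kupffer libraries, among them Ccl5, Xcl1 and Cxcl9, was not tested.

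Microglia concentrated their ligand transcripts in neighbouring genes. Ccl4 and Ccl3, which lie in a stretch of chromosome 11 with Ccl5, Ccl6 and Ccl9 (83525778 to 83664683, mm10), made up 62.3% and 26.2% of 9415 TPM. Ccl4 reached 5866 ± 378 TPM and Ccl3 2463 ± 306 TPM, without overlap beyond these SDs. Ccl12 (374 ± 47.7 TPM), Ccl6 (275 ± 100.9), Ccl9 (169 ± 43.6) and Cxcl16 (98.5 ± 8.71) followed. The gaps between Ccl12 and Ccl6 and between Ccl6 and Ccl9 were within their summed SDs.

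In microglia 5 ligands were called higher and 17 lower than in the mean of the other types, beside 21.7% and 20.3% of all genes. Ccl4 stood at 1205, 1430 and 1096 CPM, and no other WT library exceeded 418 CPM (log2 3.52 ± 0.29, adjusted p = 2.93e-06). Ccl3 stood at 596, 731 and 496 CPM against at most 224 CPM (log2 3.09 ± 0.31, adjusted p = 1.66e-05). Ccl12, a Ccr2 ligand beside Ccl2 and Ccl7 on chromosome 11, stood at 54.0, 80.0 and 60.1 CPM against at most 4.40 CPM (log2 4.65 ± 0.20, adjusted p = 2.4e-08).

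Ccl9, a Ccr1 ligand, stood at 114, 224 and 163 CPM in microglia, and the highest alveolar library, replicate 2 at 113 CPM, lay just below (log2 2.85 ± 0.29, adjusted p = 1.87e-05). Cxcl17, the fifth ligand called higher, averaged 1.04 CPM, although the F test over all 4 types did not call it. Ccl2 did not follow Ccl12: it averaged 27.0 CPM in microglia, 26.4 in alveolar macrophages, 53.8 in Kupffer cells and 10.04 CPM in splenic macrophages. The immediate early list of 21 genes, which also responds to tissue dissociation, summed to 66090.5 to 73970.5 CPM in WT microglia, 37078 to 44070 CPM in splenic macrophages and 11674 to 33577 CPM in the other types. Its part in the Ccl3 and Ccl4 levels was not tested.

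Splenic macrophages had the smallest ligand total, 1658 TPM. Ccl4 led with 601 ± 269 TPM, followed by Cxcl2 (384 ± 154), Ccl6 (156 ± 14.0), Cxcl10 (90.1 ± 31.3), Ccl5 (85.8 ± 20.7) and Ccl24 (75.01 ± 15.4). Ccl4 and Cxcl2 overlapped within their SDs, as did the last 3. Against the other types 4 ligands were called higher and 8 lower, beside 14.5% and 9.69% of all genes. Ccl24 stood at 23.3, 32.8 and 35.4 CPM (log2 1.67 ± 0.35, adjusted p = 0.0053) and Ccl5 at 33.0, 21.3 and 23.1 CPM (log2 1.92 ± 0.44, adjusted p = 0.00831). Both lay below every Kupffer library, so these calls place the spleen second among the 4 types. The other 2 were Xcl1 and Ppbp, a platelet chemokine that averaged 1.26 CPM.

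**Figure D2:**
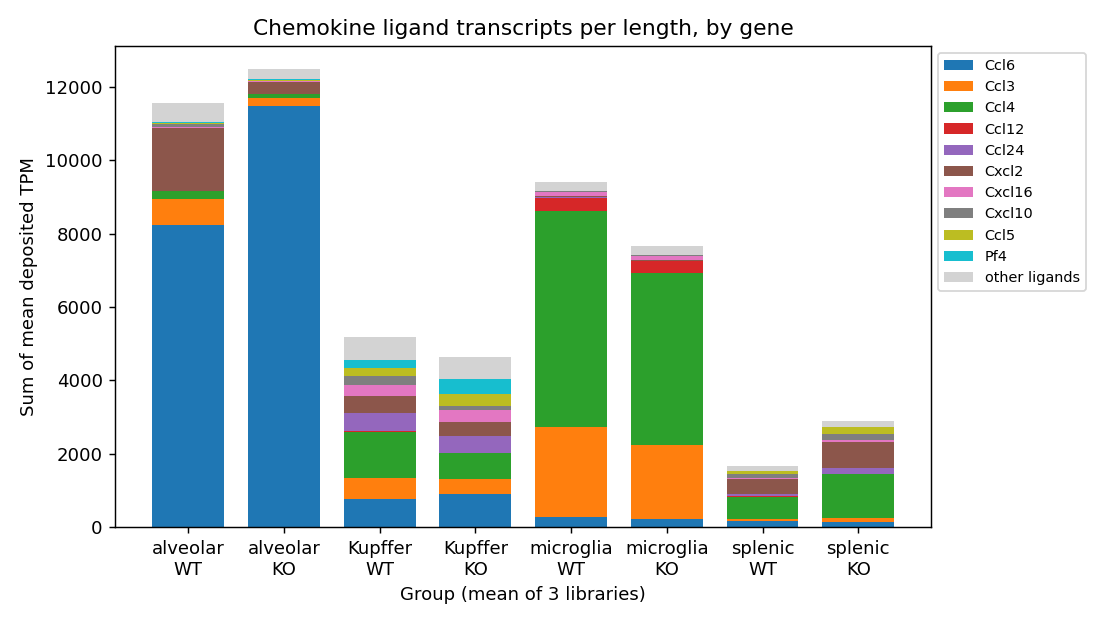
Stacked bars of deposited TPM per ligand gene, as the mean of 3 libraries in each of the 8 groups (vertical axis: sum of mean TPM, starting at 0). Ccl6 fills most of the alveolar bars, Ccl4 and Ccl3 most of the microglial bars, and the splenic WT bar is the smallest at 1658 TPM.

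The effect of the Z165KO genotype was then read in each type. No ligand was called in any of the 4 types by edgeR (adjusted p under 0.05). Over all genes, 0.317% were called in alveolar macrophages, 0.0629% in Kupffer cells, 0% in microglia and 0.747% in splenic macrophages. At an unadjusted p under 0.05 there were 9 of 27 tested ligands in alveolar macrophages, 2 of 29 in Kupffer cells, 3 of 21 in microglia and 8 of 25 in splenic macrophages, beside 12.5%, 6.94%, 4.44% and 11.7% of all genes. DESeq2 called 5, 0, 1 and 4 ligands, beside 5.31%, 2.16%, 0.52% and 5.07% of all genes.

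The fitted differences leaned opposite ways in lung and spleen. In alveolar macrophages 21 of 27 ligands had a log2 difference below 0, with a median of −1.08 against −0.01 over all genes. In splenic macrophages 22 of 25 lay above 0, with a median of 0.57 against 0.00 over all genes. Kupffer cells had 15 above and 14 below 0, and microglia 10 above and 11 below. Without alveolar WT replicate 2 the alveolar count was 16 of 27, and without splenic KO replicate 2 the splenic count was 17 of 26.

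**Figure D3:**
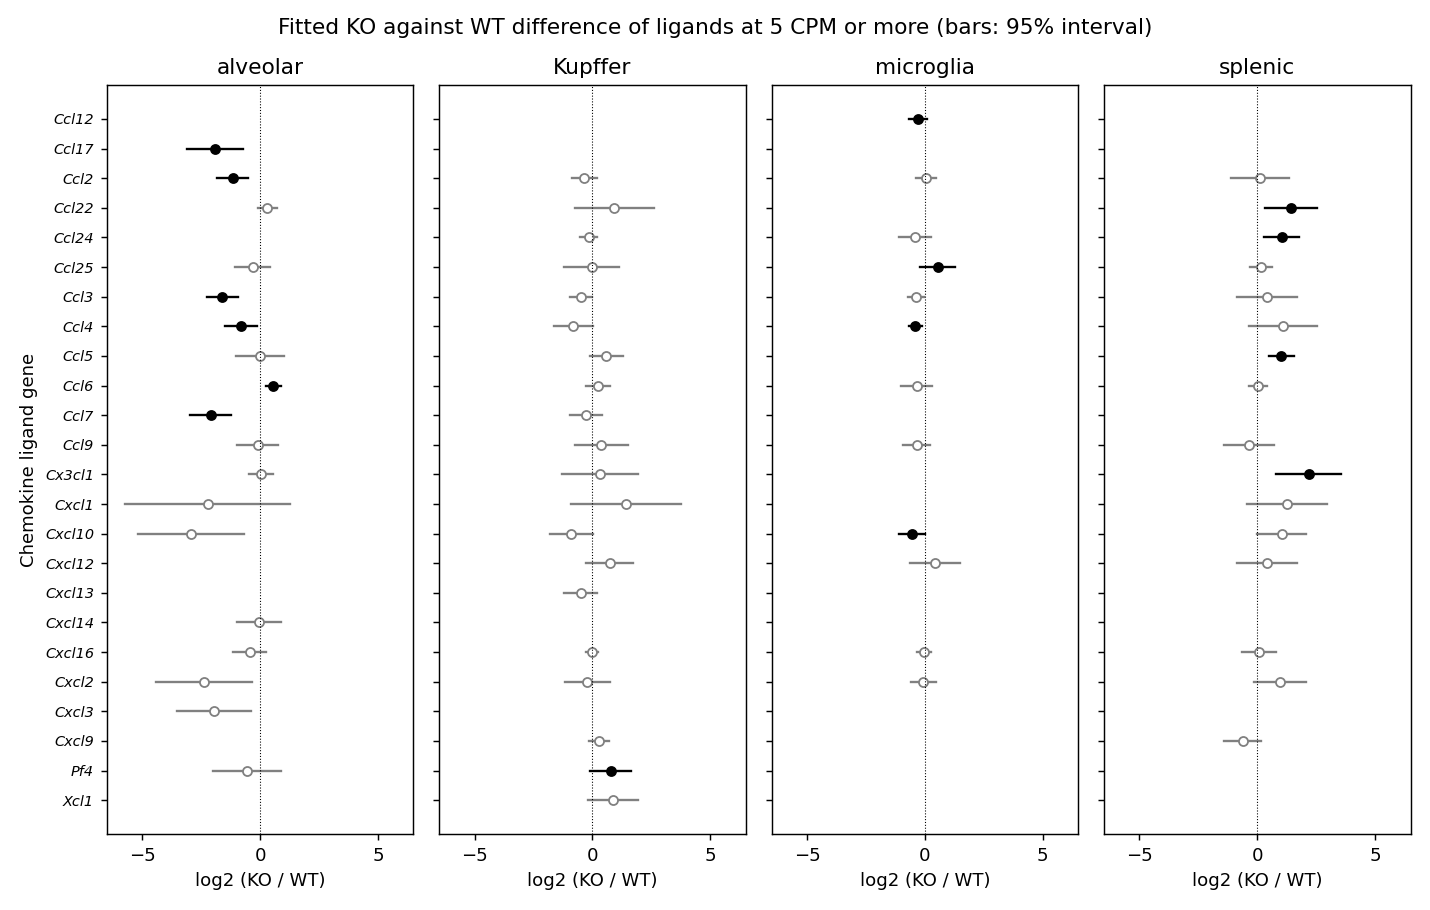
Fitted log2 difference of KO against WT (horizontal axis) for each ligand with a mean of 5 CPM or more in a genotype, in the 4 cell types. Circles are edgeR estimates and bars their 95% intervals. Filled black marks are ligands whose 3 KO and 3 WT libraries do not overlap. Black marks lie mostly left of 0 in alveolar macrophages and right of 0 in splenic macrophages.

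In alveolar macrophages, of 18 ligands at 5 CPM or more, 5 had every KO library below every WT library and 1 had every KO library above. Over all genes at that level these shares were 12.7% and 10.2%. The 5 lower ligands were Ccl2, Ccl3, Ccl4, Ccl7 and Ccl17, and the higher was Ccl6.

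Ccl3 stood at 154, 224 and 138 CPM in WT and at 43.8, 46.9 and 78.0 CPM in KO. Its highest KO library lay well below the lowest WT library. The WT mean was 3.06 times the KO mean (log2 −1.61 ± 0.28, 95% interval −2.27 to −0.94, edgeR adjusted p = 0.0884). Its adjusted p was 6.22e-07 with DESeq2 and 0.048 in an edgeR fit over the 24 libraries together, which called 1.24% of all genes in this comparison, and ranged from 6.22e-07 to 0.347 over the alternatives. Ccl4, its neighbour, stood at 28.3, 55.8 and 49.0 CPM in WT and at 27.8, 25.9 and 20.7 CPM in KO. The gap between its groups was 28.3 against 27.8 CPM, and its adjusted p was 0.303 (log2 −0.82 ± 0.28, interval −1.48 to −0.15).

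The Ccr2 ligands Ccl2 and Ccl7 were lower in KO in the same manner. Ccl2 stood at 29.5, 21.5 and 28.3 CPM in WT and at 15.1, 7.43 and 12.02 CPM in KO (log2 −1.16 ± 0.28, interval −1.83 to −0.49, adjusted p = 0.16; DESeq2 adjusted p = 0.0065, range 0.0065 to 0.416). Ccl7 stood at 13.6, 9.23 and 7.81 CPM in WT and at 1.85, 1.77 and 3.48 CPM in KO. Its WT mean was 4.32 times its KO mean (log2 −2.09 ± 0.37, interval −2.96 to −1.22, adjusted p = 0.0935; DESeq2 adjusted p = 2.8e-05, range 2.8e-05 to 0.352). The 24-library fit called Ccl7 too (adjusted p = 0.0417).

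Ccl17, which attracts Ccr4-bearing T cells, stood at 7.62, 10.1 and 19.9 CPM in WT and at 5.10, 2.36 and 2.15 CPM in KO (log2 −1.92 ± 0.50, interval −3.09 to −0.74, adjusted p = 0.182; DESeq2 adjusted p = 0.0062, range 0.0062 to 0.435). Its genomic neighbours on chromosome 8 (94745590 to 94812036, mm10) did not share this. Ccl22 stood at 15.8, 17.5 and 19.0 CPM in WT and 17.5, 22.8 and 23.1 CPM in KO (log2 0.30 ± 0.17, interval −0.11 to 0.71), and Cx3cl1 averaged 107 and 109 CPM (log2 0.05 ± 0.22, interval −0.47 to 0.57). Whether Ccl17 differs from these neighbours in its genotype effect was not tested.

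Ccl6, the most abundant alveolar ligand, went the other way. It stood at 4511, 4897 and 4781 CPM in WT and at 6810, 5517 and 8146 CPM in KO. All KO libraries were higher, with a KO mean of 1.44 times the WT mean (log2 0.55 ± 0.13, interval 0.24 to 0.87, adjusted p = 0.159; DESeq2 adjusted p = 0.0115, range 0.0115 to 0.418). The ligand total on the TPM scale was accordingly not smaller in KO (12490 against 11549 TPM), although 21 of 27 fitted differences lay below 0.

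Cxcl1, Cxcl2, Cxcl3 and Cxcl10, whose promoters are printed above, overlapped between the alveolar genotypes. Cxcl2 stood at 269, 2738 and 450.2 CPM in WT and at 253, 136 and 284 CPM in KO (log2 −2.38 ± 0.87, interval −4.43 to −0.33, adjusted p = 0.322). Cxcl3 stood at 16.3, 119.5 and 41.0 CPM in WT and at 15.6, 12.1 and 17.9 CPM in KO (log2 −1.96 ± 0.67, adjusted p = 0.296). Cxcl10 stood at 5.99, 109.6 and 48.2 CPM in WT and at 11.2, 5.85 and 4.03 CPM in KO (log2 −2.95 ± 0.95, adjusted p = 0.273, and 0.0421 in the 24-library fit, range 0.0421 to 0.618).

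WT replicate 2 was the highest library for all 4. The Cxcl1 difference was −4.35 without KO replicate 1, which held 20.2 CPM against 1.75 and 2.04 CPM. Without WT replicate 2, the log2 difference was −0.62 for Cxcl2, −0.85 for Cxcl3 and −1.87 for Cxcl10, and that of Cxcl1 turned from −2.21 to 0.56. For the ligands whose genotypes did not overlap, leaving it out gave −1.33 for Ccl3, −0.58 for Ccl4, −1.26 for Ccl2, −2.13 for Ccl7, −2.02 for Ccl17 and 0.61 for Ccl6. The same library held 1588 CPM of Tnf, an NF-kB target, against 117 and 232 CPM in the other WT and 35.9 to 72.5 CPM in the KO libraries. Its sum over the 20 NF-kB and cytokine genes was 16862 CPM, against 4534 and 6465 CPM in the other WT libraries and 5203 to 6510 CPM in KO. The immediate early sum was 31754 CPM, against 11674 and 16064 CPM in WT and 10124 to 11561 CPM in KO. The part of activation before or during isolation was not tested.

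**Figure D4:**
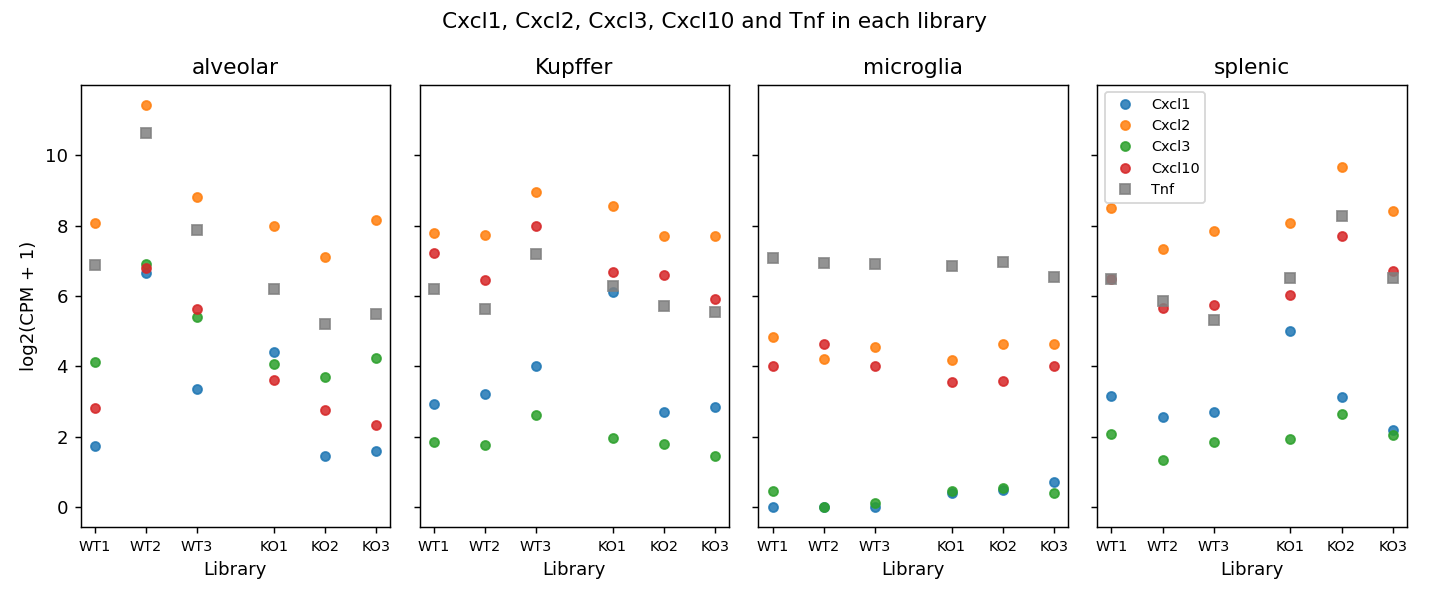
Level of Cxcl1, Cxcl2, Cxcl3 and Cxcl10 (circles) and Tnf (squares) in each library of the 4 cell types, as log2(CPM + 1). Among alveolar libraries all 5 genes peak in WT replicate 2, where Cxcl2 reaches 2738 CPM. Cxcl2, Cxcl3, Cxcl10 and Tnf are also highest in splenic KO replicate 2 among splenic libraries.

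Which genes moved with Cxcl2 from library to library was described after the pattern had been seen. In each of the 8 groups, the library with the most Cxcl2 was noted. It also had the most Tnf in 7 of 8 groups, and the most Ccl3, Ccl4 and Ccl9 in 6 of 8. Cxcl10 shared it in 5 of 8 groups, Cxcl1 in 4 of 6 and Cxcl9 in 3 of 4 (groups with a mean of 5 CPM or more only). Ccl6 shared it in 5 of 8 groups, Ccl2 in 3 of 8, Ccl5 in 3 of 6, Ccl22 in 2 of 6 and Ccl7 in 1 of 3. Cxcl12 shared it in 4 of 5 groups, Cxcl16 in 4 of 8, Ccl25 in 2 of 8 and Ccl24 in 1 of 5. Among other inducible genes, Junb shared it in 6 of 8 groups, Nfkbia and Egr1 in 5 of 8, Il1b in 4 of 8 and Fos in 3 of 8. Isg15 shared it in 4 of 6 groups, Ifit1 in 3 of 5 and Ifit3 in 3 of 6. Between 20.6% and 41.3% of all genes at 5 CPM peaked in the same library as Cxcl2, depending on the group.

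Marker sums of other cell types also differed between the genotypes in the alveolar libraries. The sum of 12 B cell markers was 88.3 to 178 CPM in WT and 7.95 to 14.4 CPM in KO, with 4 of 11 tested markers called lower and Pax5 and Fcer2a at 0 in KO. The sum of 12 neutrophil markers was 266 to 444 CPM in WT and 619.9 to 774 CPM in KO, with 1 of 11 called higher (Cxcr2). Dendritic cell markers, which include Ccl17 and Ccl22, summed to 91.7 to 109.9 CPM in WT and 72.7 to 88.7 CPM in KO. Without Ccl17, whose levels are given above, these sums overlap between the genotypes. The list is therefore no separate measure beside that ligand. In this list 1 of 13 markers was called lower. Basophil, mast cell and eosinophil markers summed to 5.60 to 11.8 CPM in WT and 18.0 to 43.0 CPM in KO, with 1 of 3 tested called higher. Border-associated macrophage markers, which include Pf4, summed to 1270.2 to 1573 CPM in WT and 1046 to 1164 CPM in KO. Of these, 0 of 10 were called. The part of these cell types in the ligand differences was not tested.

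In splenic macrophages, of 16 ligands at 5 CPM or more, 4 had every KO library above every WT library (Ccl5, Ccl22, Ccl24 and Cx3cl1) and 0 had every one below. Over all genes at that level the shares were 8.29% and 13.7%.

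Ccl5, which attracts T cells and monocytes, stood at 33.0, 21.3 and 23.1 CPM in WT and at 44.7, 63.0 and 43.8 CPM in KO. Its KO mean was 1.95 times its WT mean (log2 1.02 ± 0.23, interval 0.49 to 1.55, adjusted p = 0.126; DESeq2 adjusted p = 0.00154, range 0.00154 to 0.5). Ccl24 stood at 23.3, 32.8 and 35.4 CPM in WT and at 51.3, 40.1 and 93.3 CPM in KO (log2 1.04 ± 0.32, interval 0.29 to 1.78, adjusted p = 0.272; DESeq2 adjusted p = 0.0266, range 0.0266 to 0.486). Its highest value was in KO replicate 3, without which the log2 difference was 0.65, whereas Ccl5 was highest in KO replicate 2.

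Ccl22 stood at 5.65, 5.39 and 6.59 CPM in splenic WT and at 6.77, 25.9 and 13.3 CPM in KO (log2 1.43 ± 0.47, interval 0.33 to 2.53, adjusted p = 0.296; DESeq2 adjusted p = 0.0452, range 0.0452 to 0.525). Cx3cl1 stood at 1.78, 1.68 and 2.56 CPM in WT and at 6.31, 16.3 and 3.65 CPM in KO (log2 2.19 ± 0.58, interval 0.81 to 3.56, adjusted p = 0.206; DESeq2 adjusted p = 0.00608, range 0.00608 to 0.426). Both peaked in KO replicate 2, and without it the log2 differences were 0.78 and 1.33. Ccl5 then gave 0.80 and Ccl24 1.25.

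The same KO replicate 2 was highest for Ccl4, Cxcl2 and Cxcl10, whose genotypes overlapped. Ccl4 stood at 127, 498 and 118 CPM in KO and at 185, 109 and 77.9 CPM in WT, Cxcl2 at 266, 805 and 337 CPM in KO and at 359, 159 and 229.9 CPM in WT, and Cxcl10 at 64.8, 208 and 103 CPM in KO and at 89.1, 49.1 and 52.7 CPM in WT. Tnf reached 309 CPM in KO replicate 2 and at most 90.7 CPM in the other splenic libraries. Cxcl1 and Ccl3 did not peak there. Cxcl1 was highest in KO replicate 1 (52.1, 13.4 and 5.99 TPM in KO). Ccl3 was highest in WT replicate 1, with 135 TPM against 116 TPM in KO replicate 2. Among low ligands, Xcl1 stood at 1.97, 1.94 and 1.03 CPM in WT and at 5.72, 3.16 and 2.85 CPM in KO (log2 1.29 ± 0.43, adjusted p = 0.306).

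Marker sums differed here as well. B cell markers summed to 1624 to 2174 CPM in splenic WT and 304 to 391 CPM in KO, with 11 of 12 called lower and Pax5 at 0 in KO. Neutrophil markers summed to 169 to 249.5 CPM in WT and 643 to 856 CPM in KO, with 4 of 12 called higher. Monocyte markers summed to 6044 to 6376 CPM in WT and 6682 to 8317 CPM in KO, with 1 of 13 called, which was lower in KO. By gene, 7 of the 13 lay above 0 and 6 below (median log2 0.07). The monocyte list shares Treml4 with the red pulp macrophage list and Nr4a1 with the immediate early list, so its sum does not measure monocytes alone. The following 3 sums overlapped between genotypes: NK cell markers summed to 44.6 to 82.0 and 80.1 to 106 CPM, T cell markers to 113 to 200.2 and 146 to 212 CPM, and dendritic cell markers to 309 to 498 and 239 to 419.8 CPM. The immediate early sum was 37078 to 44070 CPM in WT and 48089 to 65557 CPM in KO. The part of these differences in the ligand levels was not tested.

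In Kupffer cells, of 20 ligands at 5 CPM or more, 1 had every KO library above every WT library (Pf4) and 0 had every one below, beside 7.58% and 6.87% of all genes. Pf4 stood at 33.3, 63.8 and 66.8 CPM in WT and at 136, 70.2 and 70.6 CPM in KO (log2 0.77 ± 0.37, interval −0.09 to 1.64, adjusted p = 0.76). The highest WT and lowest KO libraries were 66.8 and 70.2 CPM, and without KO replicate 1 the log2 difference was 0.38. Platelet markers summed to 289 to 369.6 CPM in WT and 308 to 425 CPM in KO, with Gp1bb at 0 in both.

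Ccl3 and Ccl4 were lower in the mean in KO Kupffer cells, with overlap. Ccl3 stood at 147, 109 and 166 CPM in WT and 115, 85.6 and 95.4 CPM in KO (log2 −0.49 ± 0.20, interval −0.97 to −0.01, adjusted p = 0.711). Ccl4 stood at 202, 167 and 418 CPM in WT and 170.0, 152 and 121 CPM in KO (log2 −0.82 ± 0.35, adjusted p = 0.718). Cxcl16 averaged 306 ± 28.4 CPM in WT and 299 ± 16.8 CPM in KO, where the interval of −0.29 to 0.25 leaves room for no more than a small difference on the log2 scale. B cell markers summed to 899.9 to 1383 CPM in WT and 255 to 278 CPM in KO, with 5 of 12 called lower and Pax5 and Ebf1 at 0 in KO, and endothelial markers to 5636 to 7151 and 2155 to 5922 CPM.

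In microglia, of 12 ligands at 5 CPM or more, 3 had every KO library below every WT library (Ccl4, Ccl12 and Cxcl10) and 1 had every one above (Ccl25), beside 5.22% and 5.72% of all genes. Ccl4 stood at 1205, 1430 and 1096 CPM in WT and at 880.5, 987 and 943 CPM in KO. Its KO mean was 0.753 of its WT mean (log2 −0.40 ± 0.12, interval −0.68 to −0.13, adjusted p = 0.893). Ccl12 stood at 54.0, 80.0 and 60.1 CPM in WT and at 51.8, 51.8 and 54.0 CPM in KO (log2 −0.29 ± 0.17, adjusted p = 0.987), so that the nearest libraries of the genotypes were almost level. Without WT replicate 2 its log2 difference was −0.13.

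Cxcl10 stood at 15.2, 23.7 and 15.3 CPM in WT microglia and at 10.8, 11.1 and 15.1 CPM in KO (log2 −0.54 ± 0.24, adjusted p = 0.987). Ccl25 stood at 6.45, 3.15 and 6.63 CPM in WT and at 8.54, 7.91 and 7.27 CPM in KO (log2 0.54 ± 0.32, adjusted p = 0.987). WT replicate 2 was the highest microglial library for Cxcl10 and the lowest for Ccl25, and without it the log2 differences were −0.32 and 0.26. The NF-kB and cytokine genes summed to 6157 to 6297 CPM in WT microglia and 4785.5 to 5677 CPM in KO, without overlap. Red pulp macrophage markers summed to 539 to 719 and 859 to 987 CPM, monocyte markers to 374 to 516 and 521 to 666 CPM, and endothelial markers to 53.4 to 86.2 and 88.2 to 125 CPM, with 0 called in each list. The part of these sums in the ligand levels was not tested. Cxcl1 was at 0 in the WT libraries and at 0.327, 0.416 and 0.634 CPM in KO. The KO mean was 23.98 times a floor of 3 counts over the WT group (0.0191 CPM), at a very low level (edgeR adjusted p = 0.491; DESeq2 adjusted p = 0.0288, range 0.0288 to 1). This ratio allows for counting error in WT only and not for the spread between libraries.

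**Figure D5:**
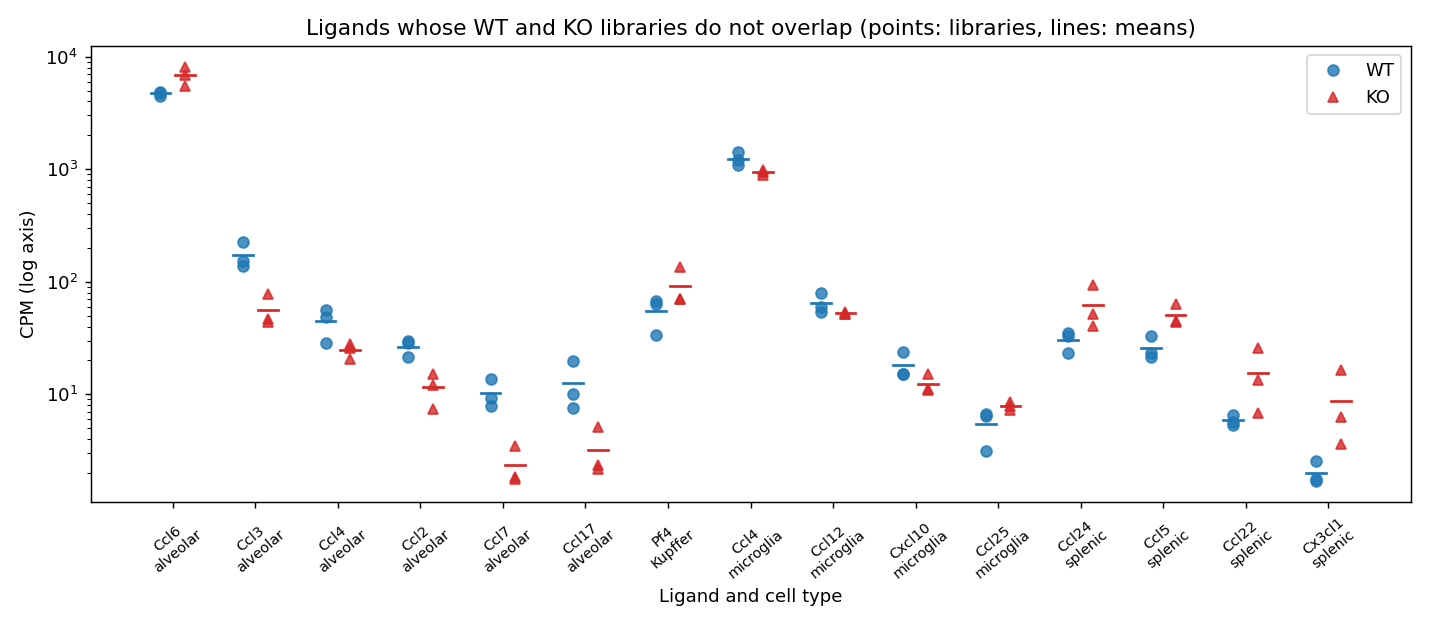
CPM (log axis) of the 15 pairs of ligand and cell type whose WT and KO libraries did not overlap at a mean of 5 CPM or more. Points are libraries (circles WT, triangles KO) and short lines are means of 3. Ccl3, Ccl7 and Ccl17 show the widest gaps among alveolar ligands, and the microglial pairs lie close together.

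Whether a genotype effect depended on the cell type was tested as an interaction over the 24 libraries. By edgeR, 0 of 30 ligands were called, beside 0.524% of all genes, with 11 at an unadjusted p under 0.05 beside 11.6% of all genes. The smallest was Ccl7 (adjusted p = 0.127, range over the alternatives 0.00334 to 0.292), followed by Cxcl10 (adjusted p = 0.215, range 0.0137 to 0.444). DESeq2 called 6 (Ccl7, Ccl22, Cxcl1, Cxcl2, Cxcl10 and Cxcl14), beside 3.98% of all genes. This test asks for any difference among the cell types. The genotype effect in alveolar macrophages was not contrasted with that in splenic macrophages alone, so their opposite lean was not tested by ligand.

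The receptors were read from a list of 19 chemokine receptors and related receptors, of which those described here are a part. In WT, Cx3cr1 stood at 6961, 5473 and 6522 CPM in microglia, which held 0.361 CPM of its ligand Cx3cl1, while alveolar macrophages, with 107 CPM of the ligand, held 13.5 CPM of the receptor. Ccr1 averaged 179 CPM in alveolar macrophages and Ccr3 596 CPM in splenic macrophages. Ccr7 averaged 249 CPM in splenic macrophages, 174 CPM in Kupffer cells and 28.1 CPM in alveolar macrophages. Ccrl2, which binds chemerin, averaged 172 CPM in Kupffer cells, 287 CPM in splenic macrophages and 531 CPM in microglia, and stood at 157, 956 and 164 CPM in the alveolar libraries, where replicate 2 again stood apart. Kupffer cells further held Ccr2, Cxcr3, Cxcr5 and Cx3cr1 between 20.8 and 37.5 CPM, and splenic macrophages Cxcr4 at 49.9 and Cxcr5 at 39.1 CPM. The part of B cells in these receptor levels was not tested.

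With genotype, 2 of 17 tested receptors were called higher in alveolar KO, 1 of 17 lower in Kupffer KO, 1 of 18 higher in splenic KO and 0 of 14 in microglia (edgeR). Cxcr2, the receptor of Cxcl1 to Cxcl3, stood at 20.5, 11.9 and 20.9 CPM in alveolar WT and at 103, 119 and 107 CPM in KO (log2 2.67 ± 0.21, adjusted p = 0.00885). Cxcr1 stood at 8.30, 7.62 and 10.2 CPM in WT and 26.5, 32.6 and 46.6 CPM in KO (log2 2.04 ± 0.23, adjusted p = 0.0258). Both receptors are known from neutrophils, and the neutrophil sum, which contains Cxcr2, is given above.

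Cxcr5, the receptor of Cxcl13 on B cells, stood at 31.0, 15.8 and 15.7 CPM in WT Kupffer cells and at 1.23, 1.02 and 1.14 CPM in KO (log2 −4.18 ± 0.36, adjusted p = 0.0283), beside the B cell sums given above. Cxcl13 itself stood at 75.9, 46.1 and 31.3 CPM in KO Kupffer cells, overlapping with WT (log2 −0.49 ± 0.29, adjusted p = 0.826). Xcr1, the Xcl1 receptor of type 1 dendritic cells, stood at 4.85, 3.11 and 4.34 CPM in splenic WT and at 15.2, 28.0 and 16.7 CPM in KO (log2 2.34 ± 0.32, adjusted p = 0.032).

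Among atypical receptors, Ackr1 and Ackr2 averaged 26.7 and 38.0 CPM in WT Kupffer cells. Of the 4 atypical receptors and the 7 proteases that process chemokines, 0 were called in KO against WT in any type (edgeR). Of the 20 NF-kB and cytokine genes, 0 were called in any KO comparison, with 18 of 20 below 0 in alveolar KO (median −0.62), 15 of 20 in Kupffer KO (median −0.22), 12 of 19 in microglial KO (median −0.11) and 10 of 20 in splenic KO (median 0.01). Of the 20 interferon-response genes 0 were called, with medians of −0.25 in alveolar, −0.34 in Kupffer, 0.28 in microglial and −0.02 in splenic KO. Of the 21 immediate early genes 0 were called in single types, with 18 below 0 in alveolar KO, 21 in Kupffer KO and 15 in microglial KO, and 17 above 0 in splenic KO. The interaction test called 1 gene of these lists, Egr2, an immediate early transcription factor (adjusted p = 0.0238).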

How the data were processed

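The authors deposited gene counts, CPM and TPM for 24 libraries. Per the submitters' processing notes DRAGEN, STAR, Subread, featureCounts and Salmon were run on mm10. The treatment of multi-mapping reads was not given in the sources used here. Per the labels' protocols, libraries were made with the SMARTer Ultra Low kit. Of 55774 rows, 287 identical repeats were dropped. The deposited counts were tested without rescaling. CPM was recomputed from the deposited counts and matched the deposited CPM. The deposited TPM served to compare levels between genes. In 4 splenic columns repeated rows lift the deposited TPM sum above its usual bound, and these were recorded as a score. TPM was not tested.

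KO was compared with WT in 6 libraries per type with the quasi-likelihood test of edgeR 4.0.16 (R 4.3.3), with TMM scaling, filterByExpr (minimum count 10) and Benjamini-Hochberg adjustment over all genes tested at 0.05. WT types were compared in 12 libraries and interactions in 24. Adjusted p-values are from edgeR unless DESeq2 (1.42.0) is named. Intervals are 95%. Alternatives were DESeq2 size factors, no filter, DESeq2, the 24-library fit, a replicate block and leaving out each library. The method was tested on simulated data. No replicates agreed within sampling noise (lowest chi-square per degree of freedom 32.7). Reads carry no molecular identifiers, so floors cover counting error only. An exact permutation test of 3 against 3 cannot reach 0.05, so none was used. Gene coordinates are from GENCODE for mm10 (1-based).

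The members and lists were chosen with earlier results of these data known. Named were ligands called in a KO or interaction test, ligands with non-overlapping genotypes at 5 CPM or more, the 6 highest by TPM in each WT type, up to 8 ligands called higher in a WT type, and receptors called or at 20 CPM in WT (1 is not reported here); Cxcl1, Cxcl2, Cxcl3 and Cxcl10 by genotype and other ligands with values were added after their values had been seen. Of 21 marker lists, those with a bearing on a named ligand and most of those whose sums did not overlap between genotypes are given.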

Additional observations from a re-analysis of the deposited data

Results flagged for a closer look

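Cxcl11 is annotated as a polymorphic pseudogene and therefore fell outside the family rule, although it encodes a Cxcr3 ligand in some mouse strains. Its KO mean was above its WT mean in splenic macrophages and microglia, and below it in the other types. In splenic macrophages the KO mean was 0.547 CPM (0.398, 1.08 and 0.158 CPM) and the WT libraries stood at 0.413, 0 and 0 CPM, so that the genotypes overlapped. In microglia the KO mean was 0.198 CPM, all of it from replicate 3 (0.595 CPM), and WT was at 0. Kupffer cells held the most, with a mean of 1.20 CPM in WT and 0.678 CPM in KO, and alveolar macrophages averaged 0.126 and 0.00592 CPM. No test was run on this gene.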

How the results depend on the processing

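Within a cell type, the correlation between the deviations of same-numbered WT and KO libraries lay between −0.05 and 0.04. Low correlations do not exclude a pairing. Whether same-numbered libraries of different cell types came from the same animals was not examined, and the labels do not state it. With the replicate block, 0 ligands were called in each of the 4 KO comparisons. Over all genes it called 0 in alveolar, Kupffer and microglial KO and 10 of 17808 in splenic KO. The interaction test then called 0 ligands, beside 93 of 24030 genes. The alveolar, Kupffer, microglial and splenic WT contrasts called 14, 15, 20 and 12 ligands, beside 6572, 4599, 8510 and 4762 of 21679 genes. The WT F test called 24, beside 10545 of 21679 genes. The count of ligands called in KO against WT was 0 in the edgeR test used in the text. With DESeq2 it was 5 in alveolar macrophages, 1 in microglia and 4 in splenic macrophages, beside 5.31%, 0.52% and 5.07% of all genes. It was 2 in alveolar and 1 in splenic macrophages without the filter on low counts, beside 163 of 32276 and 330 of 33575 genes. In the 24-library fit it was 3 for alveolar macrophages, beside 297 of 24030 genes. The interaction count was 6 with DESeq2, beside 957 of 24030 genes. Leaving out each library in turn gave 0 to 1 (Cxcl10 without alveolar WT replicate 1, Ccl7 without microglial WT replicate 2 and Ccl3 without splenic WT replicate 1). The cause was not tested. The alveolar count below 0 was 16 to 24 and the splenic count above 0 was 17 to 23 over libraries left out. The alveolar Cxcl1 difference lay between −4.35 (without KO replicate 1) and 0.56 (without WT replicate 2). Over all named KO differences, Cxcl1 included, 15 values under other settings passed the threshold and 80 kept their side. With a library left out, 113 kept it and 1 changed sign, that of Cxcl1 without alveolar WT replicate 2. For the named WT contrasts, 255 values kept their call with a library left out and 9 lost it, and 86 kept it under other settings and 1 lost it, all for Kupffer Cxcl9 or Cxcl10.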
